A study of Homo sapiens with 24 samples.

Results

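The genes described here were the cyclin-dependent kinase (CDK) inhibitors, the 4 INK4 genes CDKN2A, CDKN2B, CDKN2C and CDKN2D and the 3 CIP/KIP genes CDKN1A, CDKN1B and CDKN1C. They were chosen by symbol, by a rule that used no measured value but with earlier results of these data known. They make up 7 of the 26475 genes listed in each of 24 RNA-seq libraries. All 7 were listed in every library, 2 of them at 0 throughout, and 5 passed the filter on low counts and were tested. Of all genes listed, 4031 (15.2%) were at 0 throughout.

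INK4 proteins bind CDK4 and CDK6 and block their pairing with D-type cyclins, which keeps RB hypophosphorylated and E2F factors inactive. CIP/KIP proteins bind assembled cyclin and CDK complexes, chiefly those of CDK2, and are induced by FOXO factors or by growth arrest signals. In clear cell renal cell carcinoma (ccRCC), loss of the chromosome 9p segment that carries CDKN2A and CDKN2B is a recurrent event of advanced disease.

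The libraries came from 2 human ccRCC lines, 786-M1A and OS-LM1, which were derived from 786-O and OS-RC2 for their capacity to metastasise. PAX8 encodes a transcription factor of the renal lineage. Each line carried the PAX8 short hairpin shPAX8-1, the PAX8 short hairpin shPAX8-2 or the construct sgNTC18, with 4 replicates in each of the 6 groups. The labels name no doxycycline, dose or time, whereas the study's methods list doxycycline-inducible hairpin vectors. sgNTC18 is a non-targeting CRISPR guide and not a hairpin, and a hairpin control was not analysed here, so PAX8 depletion and the kind of construct cannot be told apart in any comparison with sgNTC18. Nothing in the labels says that replicates were separate cultures, and p-values therefore measure the spread between libraries, which may be technical.

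The guide strands of both hairpins are shown because, by their labels, the PAX8-depleted groups of a line differ only in the hairpin. Capitals mark the seed (bases 2 to 8). Each strand matched PAX8 over all 22 bases, on the minus strand of chromosome 2 (GRCh38).
shPAX8-1: tGTGAGTCaatgcttagtcggc
shPAX8-2: tAGAGTTGtgttaataatggag
The shPAX8-1 site lay in the coding part of exon 7 of 12, at chr2:113241690-113241711, and the shPAX8-2 site in the 3′ UTR in exon 12, at chr2:113218122-113218143. A match to the shPAX8-1 seed occurred in the 3′ UTR of 6.8% of 19461 protein-coding genes and a match to the shPAX8-2 seed in 10.3%. Among the 7 inhibitor genes the only such match was 1 shPAX8-1 match in CDKN2B, which had no reads in any library.

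Library totals ran from 11634419 to 52059375 expected counts, with a median of 18200166 in the 16 depleted libraries and 32029482.53 in the 8 sgNTC18 libraries. PAX8, the targeted gene, averaged 341 ± 44.7 CPM (SD, n = 4; counts scaled by TMM to a common library size) in 786-M1A sgNTC18 libraries, 18.7 ± 4.32 with shPAX8-1 and 42.4 ± 2.37 with shPAX8-2. In OS-LM1 it averaged 259.9 ± 14.5, 78.2 ± 13.1 and 79.2 ± 13.7 CPM in the same order, and no depleted library overlapped an sgNTC18 library of its line. The 4 shPAX8-1 libraries of 786-M1A fell into pairs: replicates 1 and 2 differed from replicates 3 and 4 by a chi-square of 44.7 to 77.4 per gene, against 14.1 and 3.73 within the pairs, so the fold changes of the inhibitors that involve that group are also given for each pair. Sums and gene lists are given for all 4 libraries only. Large values were not limited to that group. In OS-LM1 shPAX8-2, replicate 3 differed from replicate 4 by 89.5 and from replicate 2 by 59.7. In OS-LM1 sgNTC18, replicate 2 differed from replicates 1 and 3 by 42.7 and 43.8. Neither of these groups was split, and the statistic also grows with library depth. Of 7 leukocyte and endothelial markers, CD3E and MS4A1 had no reads in any of the 24 libraries, and CDH5 had none in 20. The summed level of the 7 markers was 0.389 to 1.06 CPM in sgNTC18 libraries and 1.33 to 4.68 CPM in depleted libraries, of which CD14 was at 0.197 to 0.527 CPM and 0.967 to 3.65 CPM. CD14 rose in all 4 comparisons with sgNTC18 (2.71 and 2.00 on the log2 scale in 786-M1A, 3.13 and 2.43 in OS-LM1), and PECAM1, tested only in OS-LM1, was not called. The part of these transcripts in the results was not tested. In bulk samples such as these, fewer cells of a type and less RNA per cell cannot be told apart.

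CDKN1A supplied most of the inhibitor transcripts in every group, and the family total was lower in the depleted groups of 786-M1A and higher in those of OS-LM1. Levels are compared between genes in TPM, which scale transcripts to one total after dividing by length. Summed over the 7 genes, the level was 708 ± 28.8 TPM (SD, n = 4) in 786-M1A sgNTC18 libraries, 199.6 ± 18.6 with shPAX8-1 and 371 ± 17.0 with shPAX8-2. The sum was not tested. In OS-LM1 the sum was 439 ± 26.5 TPM with sgNTC18, 569.7 ± 36.7 with shPAX8-1 and 542 ± 27.9 with shPAX8-2. CDKN1A made up 88.0% of the sum in 786-M1A sgNTC18 libraries, 76.9% with shPAX8-1 and 89.1% with shPAX8-2, and 85.5%, 95.4% and 95.9% in the same groups of OS-LM1. The INK4 genes alone summed to 69.3, 26.4 and 26.4 TPM in 786-M1A and to 43.7, 12.04 and 10.8 TPM in OS-LM1.

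**Figure D1:**
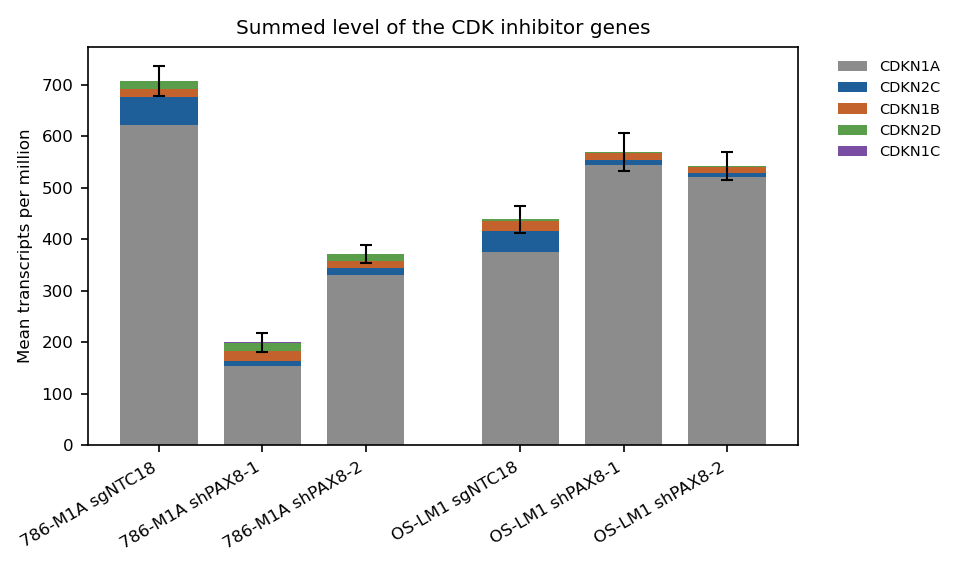
Mean TPM of the 5 detected inhibitor genes, stacked by gene, for each line and construct (n = 4 libraries; error bars are the SD of the sum over the 7 genes). The sum was lower in both depleted 786-M1A groups than in sgNTC18 and higher in both depleted OS-LM1 groups, and CDKN1A was the largest component throughout.

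The order of the levels differed between groups. With sgNTC18 in 786-M1A, CDKN1A (622 ± 26.2 TPM) was followed by CDKN2C (54.1 ± 2.56), CDKN1B (15.7 ± 0.436) and CDKN2D (15.2 ± 0.708), of which the last pair overlapped between libraries, and then by CDKN1C (0.107 ± 0.0568). With sgNTC18 in OS-LM1 the order was CDKN1A (375 ± 24.8 TPM), CDKN2C (40.4 ± 2.84), CDKN1B (19.7 ± 1.05), CDKN2D (3.32 ± 0.363) and CDKN1C (0.085 ± 0.0866), with no overlap between neighbours. In all 4 depleted groups the mean TPM of CDKN2C was below that of CDKN1B. The ranges of the 2 genes overlapped with shPAX8-2 in 786-M1A (10.6 to 15.0 TPM for CDKN2C, 12.4 to 13.9 for CDKN1B) and with shPAX8-2 in OS-LM1 (7.96 to 9.91 against 9.51 to 13.1), and did not overlap with shPAX8-1. CDKN2D in the depleted groups of 786-M1A (15.1 to 20.3 TPM with shPAX8-1, 12.3 to 15.6 with shPAX8-2) overlapped CDKN1B, whereas in those of OS-LM1 it lay below CDKN2C in every library (1.06 to 3.32 and 1.38 to 2.65 TPM).

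How many of the 5 tested genes differed in each comparison has to be read against the whole transcriptome, in which most genes differed. CDKN1C passed the filter only through the depleted groups, where it was high, so these counts are a description. At an adjusted p under 0.05 (edgeR quasi-likelihood test, adjusted over all genes tested), shPAX8-1 against sgNTC18 in 786-M1A called 4 of the 5 genes and 70.6% of 14452 genes. shPAX8-2 against sgNTC18 in 786-M1A called 3, against 62.5% of all genes. In OS-LM1 each hairpin called all 5 tested genes, against 71.4% of 15049 genes for shPAX8-1 and 68.4% for shPAX8-2. The hairpins of a line were set against the same sgNTC18 libraries. Between the hairpins, 3 of the 5 genes were called in 786-M1A, against 47.1% of all genes, and 0 in OS-LM1, against 29.1%. DESeq2 also called 0 there, and 1 gene, CDKN1B, was under 0.05 before adjustment in edgeR. Between the lines, sgNTC18 libraries differed in 4 of the 5 genes, against 63% of 15665 genes, the response to depletion differed in 3, against 58.7%, and the difference between hairpins differed in 2, against 27.2%. With replicates 1 and 2 as the only shPAX8-1 libraries of 786-M1A, the counts that involve that group were 3, 1, 3 and 1 in place of 4, 3, 3 and 2. With replicates 3 and 4 alone they were 4, 3, 3 and 3.

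**Figure D2:**
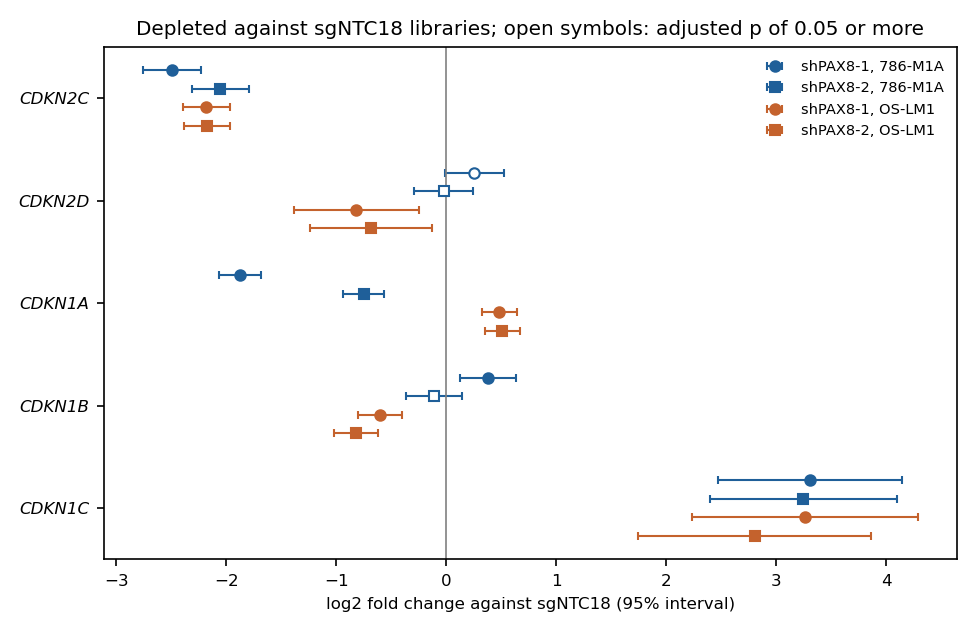
log2 fold change against sgNTC18 of the 5 tested inhibitor genes, with 95% intervals, for each hairpin (circles, shPAX8-1; squares, shPAX8-2) in 786-M1A (blue) and OS-LM1 (orange); open symbols missed the adjusted p of 0.05. CDKN2C lay below 0 and CDKN1C above 0 in all 4 comparisons, whereas CDKN1A lay below 0 in 786-M1A and above 0 in OS-LM1.

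CDKN2A and CDKN2B transcripts were not detected in either line. CDKN2A encodes p16INK4a and, from a second start, p14ARF, an inhibitor of MDM2, and its entry merges 4 transcripts, so these products could not have been separated. CDKN2B encodes p15INK4b, an inhibitor induced by TGF-beta. Both had 0 counts in each of the 24 libraries, out of 578950338 counts in all, which allows a level of up to 0.00518 CPM for each (3 counts over all libraries, counting error only). Neither could be tested. CDKN2A lies at chr9:21967752-21995324 and CDKN2B at chr9:22002903-22009313 (GRCh38.p14).

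Some of the genes around CDKN2A differed sharply between the lines, as seen in the plot of levels by distance from CDKN2A. Of 13 listed neighbours, 12 were tested between the sgNTC18 libraries of the lines. In OS-LM1 6 were higher and 3 lower than in 786-M1A, beside 32.0% and 31.0% of 15665 genes. MTAP, a methionine salvage enzyme whose middle lay 110 kb to the telomeric side of that of CDKN2A, was at 38.2 ± 2.70 CPM in 786-M1A sgNTC18 libraries and at 2.88 ± 0.219 CPM in OS-LM1, a log2 difference of -3.73 (SE 0.138; edgeR, adjusted p = 2e-18). DMRTA1, a DM domain factor 470 kb to the other side, was at 6.88 ± 0.586 CPM in 786-M1A and had 0 counts in all 12 OS-LM1 libraries, at least 322-fold lower in the sgNTC18 libraries (against 3 counts over the group). HACD4, 966 kb away on the MTAP side, showed the converse, with 0 counts in 786-M1A sgNTC18 libraries and 17.1 ± 1.20 CPM in OS-LM1, at least 547-fold higher.

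ELAVL2, an RNA-binding protein gene 1789 kb away, was also at 0 in all 12 libraries of 786-M1A and at 0.353 CPM in pooled OS-LM1 sgNTC18 libraries, at least 11.3-fold higher. KLHL9 (30.1 and 35.3 CPM in pooled sgNTC18 libraries of 786-M1A and OS-LM1), FOCAD (28.7 and 29.7 CPM) and TUSC1 (31.9 and 26.1 CPM), which lie among or beyond these genes, had reads in every library of both lines. CDKN2B-AS1, the antisense RNA of the CDKN2B locus, was likewise read in every library, at 2.09 CPM in 786-M1A and 3.09 CPM in OS-LM1. Whether the counting used strand is not given in the sources used here, but CDKN2B itself was at 0, so no reads on these overlapping genes had been assigned to it. Against sgNTC18, CDKN2B-AS1 fell with shPAX8-1 by 1.00 and with shPAX8-2 by 1.04 on the log2 scale in 786-M1A (adjusted p = 0.018 and 0.019) and with shPAX8-2 by 0.82 in OS-LM1 (adjusted p = 0.0079), and was at -0.52 with shPAX8-1 in OS-LM1 (adjusted p = 0.072). Of the 13 listed 9p21 neighbours, 2 rose and 3 fell with shPAX8-1 and 0 rose and 5 fell with shPAX8-2 among 10 tested in 786-M1A, and 4 rose and 2 fell and 4 rose and 4 fell among 11 tested in OS-LM1. These are 5 of 10, 5 of 10, 6 of 11 and 8 of 11 called, against the 70.6%, 62.5%, 71.4% and 68.4% of all genes. The other listed neighbours are given for pooled sgNTC18 libraries of 786-M1A and then OS-LM1. MLLT3 was at 10.2 and 15.1 CPM, CAAP1 at 8.16 and 11.6, PLAA at 29.6 and 53.5 and IFT74 at 2.12 and 10.2. IFNE was at 0.0936 and 0.0721 CPM. DNA copy number was not measured, and its part in the levels of the 9p21 genes was not tested.

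**Figure D3:**
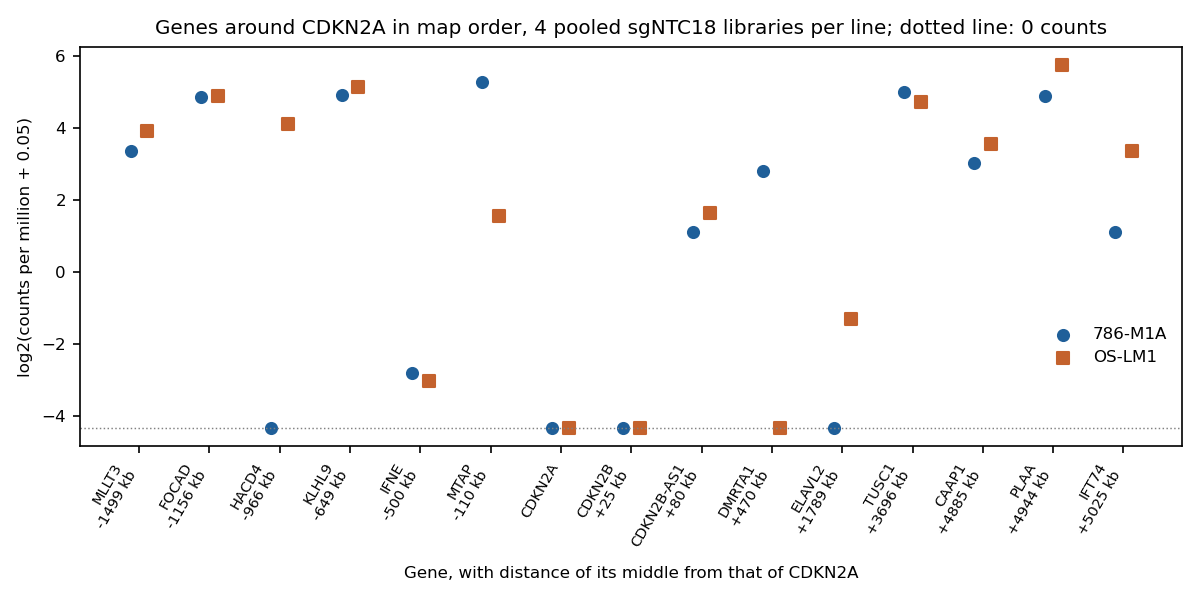
log2(CPM + 0.05) for CDKN2A, CDKN2B and 13 neighbours in map order, from the 4 pooled sgNTC18 libraries of 786-M1A (blue circles) and OS-LM1 (orange squares); the dotted line marks 0 counts. CDKN2A and CDKN2B lie on the line in both cell lines, HACD4 and ELAVL2 only in 786-M1A and DMRTA1 only in OS-LM1.

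CDKN2C, which encodes p18INK4c, fell in both lines with both hairpins, more than any other tested inhibitor. In 786-M1A it was at 50.6, 58.5, 58.1 and 52.3 CPM in the sgNTC18 libraries, 10.1, 9.99, 7.89 and 10.3 CPM with shPAX8-1 and 10.6, 13.4, 12.9 and 15.4 CPM with shPAX8-2. In OS-LM1 it was at 45.8, 40.4, 41.3 and 39.6 CPM with sgNTC18, 9.77, 9.63, 8.59 and 9.56 CPM with shPAX8-1 and 7.63, 9.31, 10.8 and 8.84 CPM with shPAX8-2. Every depleted library lay below every sgNTC18 library of either line.

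In 786-M1A CDKN2C fell 5.63-fold with shPAX8-1 (log2 fold change -2.49, SE 0.136, adjusted p = 8.1e-10) and 4.15-fold with shPAX8-2 (-2.05, SE 0.133, adjusted p = 9.6e-09). In OS-LM1 the falls were 4.53-fold (-2.18, SE 0.108, adjusted p = 1.3e-12) and 4.51-fold (-2.17, SE 0.108, adjusted p = 1.8e-12). With shPAX8-1 replicates 1 and 2 alone the 786-M1A value was -2.45, and with replicates 3 and 4 alone it was -2.57. Only 6.14% of the genes tested in 786-M1A had a larger absolute change with shPAX8-1. The mean response did not pass the test of a difference between lines (OS-LM1 minus 786-M1A 0.13, 95% interval -0.15 to 0.40, adjusted p = 0.46).

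The hairpins differed in CDKN2C in 786-M1A, where the shPAX8-1 level was 0.44 lower on the log2 scale (SE 0.135, adjusted p = 0.016). In that line PAX8 itself was 1.18 lower with shPAX8-1 than with shPAX8-2, and its part in the CDKN2C difference was not tested. The CDKN2C call was lost without shPAX8-1 replicate 3 (-0.36, adjusted p = 0.056) and without shPAX8-2 replicate 4 (-0.36, adjusted p = 0.053). It was also lost with shPAX8-1 replicates 1 and 2 alone (-0.37, adjusted p = 0.083) and after removal of a GC trend (-0.01, adjusted p = 0.97). In OS-LM1 the difference was -0.01 (95% interval -0.23 to 0.21). The hairpin difference differed between lines by 0.47 (SE 0.173, adjusted p = 0.046), a call lost with the replicate number as a block (0.46, adjusted p = 0.071), with the GC step (0.16, adjusted p = 0.51), with no filter (0.45, adjusted p = 0.09), with shPAX8-1 replicates 1 and 2 alone (0.39, adjusted p = 0.16) and in 10 of 16 fits that each left out 1 depleted library. With sgNTC18 CDKN2C was 1.31-fold lower in OS-LM1 (-0.39, SE 0.111, adjusted p = 0.0032), a call also lost with the GC step (-0.12, adjusted p = 0.28). Over the 24 libraries, with each line's mean removed, CDKN2C log2 CPM had a Pearson r of 0.937 with PAX8, and the genes with the most similar pattern among 9363 compared were HSD17B10 (r = 0.99), SNX12 (r = 0.986) and CLDN2 (r = 0.985); these points share 3 construct groups and are given as a description.

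The files also give a mean transcript length for each gene. The CDKN2C entry holds 2 transcripts, and their abundance-weighted mean length was 1896 ± 26.0 bases with sgNTC18, 1687 ± 101 with shPAX8-1 and 1741 ± 23.5 with shPAX8-2 in 786-M1A, and 1832 ± 19.6, 1677 ± 76.8 and 1783 ± 71.2 bases in OS-LM1. The difference from sgNTC18 reached the smallest p that an exact permutation test of 4 against 4 libraries allows for both hairpins in 786-M1A and for shPAX8-1 in OS-LM1 (two-sided p = 0.0286, 0.0686 adjusted over 12 such tests), but not for shPAX8-2 in OS-LM1 (exact permutation p = 0.257), and no adjusted value passed 0.05. The gene lies at chr1:50960745-50974634 (GRCh38.p14), and RefSeq gives it 3 starts. The 250 bases before the middle and the last start are shown because CDKN2C had the largest fall of the tested inhibitors in every depleted group and these windows differ in base composition. Capitals mark the GC box GGGCGG. They also mark the CCAAT box. The E-box letters CACGTG are in capitals as well, and each motif was searched on both strands.
CDKN2C, middle start, chr1:50968456-50968705, plus strand: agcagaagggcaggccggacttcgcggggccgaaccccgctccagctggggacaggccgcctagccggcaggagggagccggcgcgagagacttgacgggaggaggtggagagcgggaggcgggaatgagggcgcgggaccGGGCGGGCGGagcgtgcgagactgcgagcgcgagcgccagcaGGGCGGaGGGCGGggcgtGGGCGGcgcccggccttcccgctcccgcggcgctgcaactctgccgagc
CDKN2C, last start, chr1:50969995-50970244, plus strand: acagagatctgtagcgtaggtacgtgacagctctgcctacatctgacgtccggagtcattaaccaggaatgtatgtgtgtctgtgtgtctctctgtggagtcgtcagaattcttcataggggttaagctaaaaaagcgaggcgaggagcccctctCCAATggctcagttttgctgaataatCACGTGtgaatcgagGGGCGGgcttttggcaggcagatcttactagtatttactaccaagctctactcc
The window of the middle start was 77.2% GC and held 5 copies of GGGCGG, of which the first 2 overlap. The window of the last start was 48.8% GC and held 1 GC box, 1 CCAAT box and 1 E-box. The window of the first start (chr1:50960495-50960744, not shown) was 45.6% GC and held 1 E-box and no GC box or CCAAT box. Which starts the 2 transcripts of the entry use was not examined. Among 35116 windows of this length in the RefSeq promoter table, 42.6% held a GC box, 32% a CCAAT box and 6.3% an E-box, and the median GC content was 58%. These matches are descriptions of the letters only.

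CDKN2D, which encodes p19INK4d, was the inhibitor that separated the lines most. Its 12 libraries of 786-M1A ranged from 8.04 to 13.2 CPM and its 12 libraries of OS-LM1 from 0.721 to 2.39 CPM. With sgNTC18 the levels were 8.34, 10.0, 9.45 and 9.09 CPM in 786-M1A and 2.25, 2.11, 2.39 and 1.84 CPM in OS-LM1. The difference of -2.10 on the log2 scale (SE 0.207, adjusted p = 1.5e-09) is 4.28-fold, and no library of one line overlapped the other.

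Within 786-M1A CDKN2D gave a log2 fold change of 0.26 with shPAX8-1 (adjusted p = 0.11; 0.31 and 0.16 with replicates 1 and 2 or 3 and 4 alone) and -0.02 with shPAX8-2 (95% interval -0.30 to 0.25, adjusted p = 0.89). In OS-LM1 it fell with shPAX8-1, to 1.26, 0.900, 2.05 and 0.721 CPM (-0.82, SE 0.29, adjusted p = 0.017), and with shPAX8-2, to 0.84, 0.955, 1.75 and 1.54 CPM (-0.68, SE 0.285, adjusted p = 0.04). The shPAX8-1 range overlapped that of sgNTC18, with an exact permutation p of 0.0571, the shPAX8-2 range did not, and these OS-LM1 levels rest on 12 to 86 counts per library. Both calls were lost after removal of a GC trend (-0.24 with adjusted p = 0.47 and -0.35 with adjusted p = 0.28), the first without shPAX8-1 replicate 4 (-0.62, adjusted p = 0.072), and the second without any of 5 single libraries, sgNTC18 replicates 1, 2 and 3 and shPAX8-2 replicates 1 and 2 (-0.70 to -0.56, adjusted p = 0.056 to 0.11). The same GC step made the higher level in 786-M1A with shPAX8-1 pass the test against sgNTC18 (0.97, adjusted p = 3.5e-06) and against shPAX8-2 (from 0.28, adjusted p = 0.11, to 0.80, adjusted p = 0.00015). The response differed between lines, at -0.82 (OS-LM1 minus 786-M1A, SE 0.259, adjusted p = 0.0085; -0.85 with adjusted p = 0.0041 after GC removal).

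**Figure D4:**
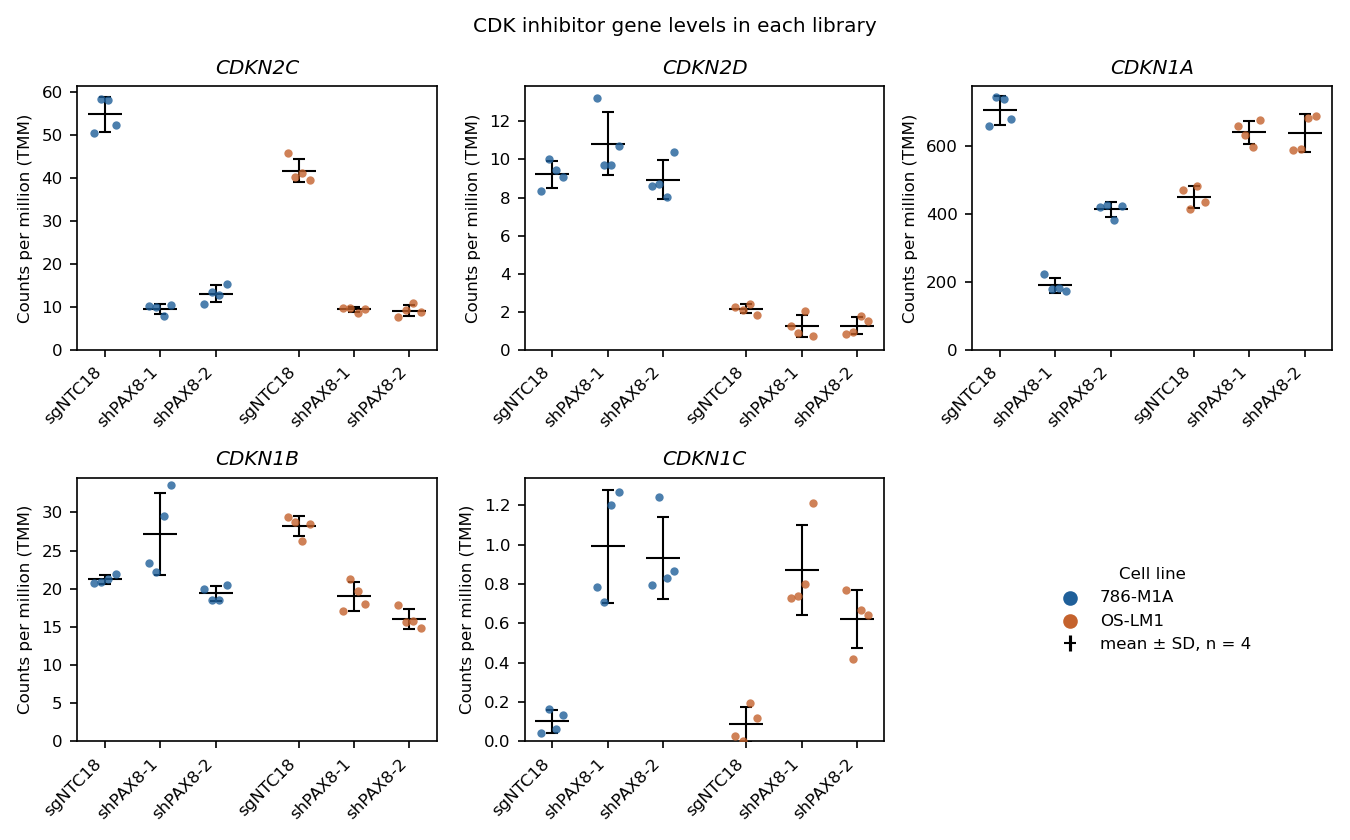
TMM-scaled CPM of the 5 detected inhibitor genes in each library, by construct, for 786-M1A (blue) and OS-LM1 (orange); black marks are the mean ± SD of 4 libraries. CDKN2C and CDKN1C separate all depleted libraries from all sgNTC18 libraries in both lines, and CDKN2D separates the lines.

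CDKN1A, which encodes p21, an inhibitor induced by DNA damage and other stress, moved in opposite directions in the 2 lines. In 786-M1A it was at 658.9, 746, 738 and 680.3 CPM with sgNTC18, 223, 180.3, 182.5 and 174 CPM with shPAX8-1 and 421, 427, 382 and 425 CPM with shPAX8-2. In OS-LM1 it was at 470.4, 414, 483 and 437 CPM with sgNTC18, 659, 632, 598 and 677 CPM with shPAX8-1 and 590, 593.5, 685 and 689.5 CPM with shPAX8-2. The groups of 786-M1A did not overlap one another, and in OS-LM1 every depleted library lay above every sgNTC18 library.

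In 786-M1A CDKN1A fell 3.66-fold with shPAX8-1 (-1.87, SE 0.097, adjusted p = 5.1e-10) and 1.68-fold with shPAX8-2 (-0.75, SE 0.094, adjusted p = 6.5e-06). In OS-LM1 it rose 1.40-fold (0.48, SE 0.081, adjusted p = 2.6e-05) and 1.42-fold (0.51, SE 0.081, adjusted p = 1.6e-05), both below the study's size limit of 0.58 and at 0.96 and 0.84 with the GC trend removed. With shPAX8-1 and shPAX8-2, 62.3% and 56.6% of the genes tested in OS-LM1 had a larger absolute change than CDKN1A. In 786-M1A these shares were 13% and 40.5%. The response differed between lines by 1.84 on the log2 scale (SE 0.108, adjusted p = 1.3e-13). The hairpins differed by -1.12 in 786-M1A (SE 0.095, adjusted p = 1.4e-06) and by -0.03 in OS-LM1 (95% interval -0.18 to 0.13). This difference itself differed between lines by 1.13 (SE 0.124, adjusted p = 2.9e-07). The 2 hairpins left PAX8 at different levels in 786-M1A, and the part of PAX8 level in the CDKN1A difference was not tested. The CDKN1A calls that involve the shPAX8-1 group of 786-M1A held with either pair of its libraries. With sgNTC18, CDKN1A was 1.57-fold lower in OS-LM1 than in 786-M1A (-0.65, SE 0.087, adjusted p = 3.8e-07).

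Over the 24 libraries, with line means removed, the genes whose log2 CPM was most like that of CDKN1A were ALDH3B1 (r = 0.984), RAB36 (r = 0.966) and NOP14-AS1 (r = 0.962), given as a description. CDKN1A lies at chr6:36676463-36687332 (GRCh38.p14). The 250 bases before its RefSeq promoter start are shown because its direction depended on the line; they were 76.4% GC and held 4 copies of GGGCGG, in capitals, of which the last 2 overlap, and no CCAAT box or E-box.
CDKN1A, chr6:36678464-36678713, plus strand: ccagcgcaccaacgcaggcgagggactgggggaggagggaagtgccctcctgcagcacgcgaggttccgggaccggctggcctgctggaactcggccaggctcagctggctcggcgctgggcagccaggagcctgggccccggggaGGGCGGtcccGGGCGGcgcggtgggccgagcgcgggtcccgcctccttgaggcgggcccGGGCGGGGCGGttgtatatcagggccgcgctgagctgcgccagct

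CDKN1B, which encodes p27, an inhibitor set largely by protein turnover, fell in OS-LM1 and had no shared direction in 786-M1A. In OS-LM1 it was at 29.4, 28.7, 26.3 and 28.4 CPM with sgNTC18, 17.1, 21.3, 19.7 and 17.9 CPM with shPAX8-1 and 17.9, 15.6, 15.7 and 14.8 CPM with shPAX8-2. Every depleted OS-LM1 library lay below every sgNTC18 library. The falls were -0.60 (SE 0.102, adjusted p = 3.2e-05) and -0.82 (SE 0.103, adjusted p = 8.4e-07), or 1.51-fold and 1.76-fold. Of the genes tested in OS-LM1, 54.3% and 36.4% had a larger absolute change.

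In 786-M1A CDKN1B was at 20.7, 20.9, 21.3 and 21.96 CPM with sgNTC18, 23.4, 22.2, 29.6 and 33.6 CPM with shPAX8-1 and 19.97, 18.6, 18.5 and 20.5 CPM with shPAX8-2. It rose with shPAX8-1 (0.38, SE 0.13, adjusted p = 0.017), but by 0.10 (adjusted p = 0.46) in replicates 1 and 2 and by 0.59 (adjusted p = 0.00014) in replicates 3 and 4, and the call was lost without replicate 4 (0.26, adjusted p = 0.076), with no filter on low counts (0.30, adjusted p = 0.07) and after removal of a GC trend (0.03, adjusted p = 0.75). With shPAX8-2 the log2 fold change was -0.11 (95% interval -0.37 to 0.15, adjusted p = 0.48), although every shPAX8-2 library lay below every sgNTC18 library and the exact permutation test of log2 CPM gave its smallest p (-0.13, p = 0.0286). The higher level with shPAX8-1 than with shPAX8-2 (0.49, SE 0.131, adjusted p = 0.0076) was likewise lost in replicates 1 and 2 (0.24, adjusted p = 0.15) and with the GC step (0.21, adjusted p = 0.075).

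The CDKN1B response differed between lines by -0.81 (SE 0.137, adjusted p = 1.5e-05), and by -0.73 and -0.95 with either pair of 786-M1A shPAX8-1 libraries (adjusted p = 6.2e-06 and 7.3e-08). With sgNTC18 the gene was 1.33-fold higher in OS-LM1 (0.41, SE 0.111, adjusted p = 0.0022; 0.20 with adjusted p = 0.062 after GC removal). The genes most like CDKN1B over the 24 libraries were CXorf38 (r = 0.929), TCEAL1 (r = 0.928) and ACBD5 (r = 0.918), and those most like CDKN2D were ECE2 (r = 0.781), TMEM55B (r = 0.78) and SAFB2 (r = 0.772), as descriptions.

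Since p27 and p21 are degraded through ubiquitin ligases, 12 genes of that machinery were read beside them. In 786-M1A with shPAX8-1, 4 rose and 6 fell (median -0.15), among them CKS1B, the SKP2 cofactor that presents p27, which rose from 194.7 ± 26.7 to 727 ± 209.6 CPM (488 to 932 CPM; 1.92, adjusted p = 4.2e-07), and DTL, the adaptor that directs p21 to CUL4, which fell (-0.96). With shPAX8-2, 2 rose and 4 fell (median 0.04), CKS1B again upward (1.09, adjusted p = 0.00014). In OS-LM1 with shPAX8-1, 3 rose and 6 fell (median -0.33), CDC20 (-2.28) and DTL (-1.83) most, and CKS1B was at -0.34 (adjusted p = 0.065). With shPAX8-2, 2 rose and 5 fell (median -0.12), CKS1B among the latter (-0.38, adjusted p = 0.048). Over all genes tested, 36.1% rose and 34.5% fell with shPAX8-1 in 786-M1A, 31.5% and 30.9% with shPAX8-2, and 35.6% and 35.8%, and 34.3% and 34.1%, in OS-LM1. The CKS1B response differed between lines by -1.84 (adjusted p = 1.5e-07).

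CDKN1C, which encodes p57, an imprinted inhibitor expressed from the maternal allele, was higher in all 4 depleted groups than its level near 0 with sgNTC18. It was read at 1, 3, 2 and 3 counts in the 786-M1A sgNTC18 libraries and at 1, 0, 7 and 4 counts in those of OS-LM1. In CPM these are 0.0411, 0.166, 0.0647 and 0.132 in 786-M1A and 0.0282, 0, 0.195 and 0.12 in OS-LM1. With shPAX8-1 it was at 0.784, 0.707, 1.20 and 1.27 CPM in 786-M1A and 0.729, 0.741, 0.803 and 1.21 CPM in OS-LM1, and with shPAX8-2 at 0.796, 1.24, 0.8288 and 0.866 CPM and at 0.77, 0.418, 0.668 and 0.64 CPM. Every depleted library lay above every sgNTC18 library.

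Pooled over libraries, 73 counts with shPAX8-1 and 60 with shPAX8-2 stood against 9 counts with sgNTC18 in 786-M1A, a ratio of CPM of 10.4 (95% counting interval 5.18 to 23.6) and 10.1 (5 to 23.2). In OS-LM1, 81 and 70 counts stood against 12, ratios of 10.3 (5.6 to 20.8) and 7.34 (3.95 to 14.9). These intervals cover counting error only. In OS-LM1, 7 of the 12 sgNTC18 counts came from replicate 3. The fitted log2 fold changes were 3.31, 3.25, 3.26 and 2.80 in the same order, given as a description because the gene entered the tests through the groups in which it was high. Without sgNTC18 replicate 3 the OS-LM1 values were 4.05 and 3.56. With shPAX8-1 replicates 1 and 2 or 3 and 4 alone the first value was 2.89 or 3.63. The difference between hairpins missed the test in both lines (0.07, 95% interval -0.57 to 0.70, and 0.46, -0.37 to 1.29), with pooled ratios of 1.02 (0.718 to 1.47) in 786-M1A and 1.41 in OS-LM1 (lower bound of the 95% counting interval 1.01), and the response missed the test of a difference between lines (-0.24, 95% interval -1.72 to 1.24, adjusted p = 0.81). Over the 24 libraries CDKN1C log2 CPM had a Pearson r of -0.93 with CDKN2C and -0.864 with PAX8, as a description. Its highest group mean was 0.945 ± 0.277 TPM, and in every group its mean TPM was the lowest of the 5 detected inhibitors.

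CDKN1C lies in the imprinted cluster at chr11:2883218-2885775 (GRCh38.p14), and 10 of its neighbours were listed. With shPAX8-1 and shPAX8-2 in 786-M1A, 2 of the 7 tested neighbours rose and 3 fell, and in OS-LM1 2 of 8 rose and 3 fell, against 62.5% to 71.4% of all genes called in these comparisons. KCNQ1OT1, the paternally expressed RNA that silences CDKN1C in cis, rose in 786-M1A (0.61 and 0.48, adjusted p = 0.00087 and 0.006) and was at 0.16 and 0.03 in OS-LM1 (adjusted p = 0.38 and 0.87). PHLDA2, which is imprinted like CDKN1C, fell in 786-M1A (-0.47 and -1.20, adjusted p = 0.015 and 1.3e-05), was at 0.04 with shPAX8-1 in OS-LM1 (adjusted p = 0.8) and rose with shPAX8-2 (0.37, adjusted p = 0.028). By mean TPM, TSSC4 and NAP1L4 were lower in the depleted groups of both lines. With sgNTC18, shPAX8-1 and shPAX8-2, TSSC4 was at 11.45, 4.27 and 3.91 TPM in 786-M1A and 10.1, 3.865 and 4.65 in OS-LM1. In the same order NAP1L4 was at 58.8, 31.2 and 33.7 TPM in 786-M1A and 61.2, 26.1 and 30.4 in OS-LM1.

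The cyclins, CDKs, RB proteins and E2F factors on which these inhibitors act were read next, against 34.5%, 30.9%, 35.8% and 34.1% of all genes that fell in the 4 comparisons with sgNTC18 and 36.1%, 31.5%, 35.6% and 34.3% that rose. Of 19 tested of 20 listed, 13 fell and 2 rose with each hairpin in 786-M1A (medians -0.67 and -0.58), and 16 and 14 fell in OS-LM1, where 1 and 2 rose (medians -0.99 and -0.79). E2F2 (-3.18), CCND3 (-2.18) and E2F1 (-2.15) fell most with shPAX8-1 in 786-M1A, and E2F2 (-2.92), E2F1 (-2.54) and CCNA2 (-2.17) in OS-LM1. RB1 (0.67) and RBL2 (0.55) were the 2 that rose with shPAX8-1 in 786-M1A, and CDK6 (0.48) rose in OS-LM1. Of 14 proliferation genes, 10 fell and 3 rose with shPAX8-1 in 786-M1A (TOP2A 1.14, BUB1 0.81 and MKI67 0.33 upward, MCM3 -3.42, MCM5 -3.07 and RRM2 -2.72 downward), 11 fell and 0 rose with shPAX8-2, and all 14 fell with either hairpin in OS-LM1, where 35.8% and 34.1% of all genes fell. TOP2A ran from 277 to 552 CPM within the shPAX8-1 libraries of 786-M1A.

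Of 21 known regulators of the inhibitors' transcription, 10 rose and 4 fell with shPAX8-1 in 786-M1A and 11 rose and 5 fell with shPAX8-2 (medians 0.14 and 0.32), whereas 9 rose and 11 fell, and 8 rose and 11 fell, in OS-LM1 (medians -0.31 and -0.25). The share of all genes called in the first comparison was 70.6%, close to 14 of 21. In the others it was 62.5%, 71.4% and 68.4%, below the share of this list, in which only 5, 1 and 2 of the 21 were not called. FOXO4 (1.98), ETS1 (1.75) and SMAD4 (1.26) rose most and ID1 (-1.76) and EZH2 (-1.58) were among those that fell most with shPAX8-1 in 786-M1A. With shPAX8-1 in OS-LM1, KLF4 (2.43), SMAD2 (0.79) and SMAD4 (0.77) rose most and ID1 (-3.41), ETS2 (-2.07) and EZH2 (-2.004) fell most. The KLF4 response was 2.55 higher in OS-LM1 than in 786-M1A on the log2 scale (adjusted p = 7.9e-11). EZH2, the histone methyltransferase that represses CDKN1C and the INK4 genes in many cells, fell with shPAX8-2 as well (-1.58 in 786-M1A and -1.73 in OS-LM1).

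The identity list held 10 genes of renal epithelium and of ccRCC, among them PAX8 itself, CA9 and NDUFA4L2. With each hairpin, 0 rose and 7 of the 8 tested fell in 786-M1A, and 4 of 10 tested rose and 4 fell in OS-LM1. Of all genes, 36.1% and 34.5%, 31.5% and 30.9%, 35.6% and 35.8%, and 34.3% and 34.1% rose and fell in the same order. In OS-LM1 CA9 averaged 7.31 TPM with sgNTC18, 49.0 with shPAX8-1 and 33.0 with shPAX8-2. NDUFA4L2 averaged 0.85, 35.9 and 38.8 TPM in these groups. GC content went with the fold changes across genes. The rank correlation of log2 fold change with transcript GC content was -0.363 for shPAX8-1 and -0.098 for shPAX8-2 against sgNTC18 in 786-M1A, -0.321 and -0.275 in OS-LM1, and -0.557 between the hairpins in 786-M1A, over 13048 to 13551 genes. The inhibitor transcripts range from 42.7% GC (CDKN1B) to 63.8% (CDKN1C), and the calls lost with the GC step are those named above; CDKN2C and CDKN1A kept direction and call against sgNTC18 in both lines, at -1.91 and -1.90 for CDKN2C and -1.28 and -0.59 for CDKN1A in 786-M1A, and at -1.70, -1.86, 0.96 and 0.84 in OS-LM1. The fitted CDKN1C values with the GC step were 4.16, 3.45, 3.83 and 3.14. The GC step was examined for the inhibitors only, so its effect on CKS1B, TOP2A and the other list genes is not known.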

How the data were processed

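RNA-seq was measured in 24 libraries. The authors aligned reads to hg38 with bowtie2 and quantified them with RSEM; versions, annotation release and strand setting are not given in the sources used here. The deposited files hold expected counts, TPM and abundance-weighted transcript lengths per gene, by RefSeq transcripts. The labels name a KAPA stranded kit and the methods Lexogen kits.

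Expected counts were rounded and scaled by TMM. Genes with low counts were removed by group with filterByExpr. The robust quasi-likelihood test of edgeR 4.0.16 (R 4.3.3, limma 3.58.1) was fitted to the 12 libraries of a line, or to all 24 for comparisons between lines, with Benjamini-Hochberg adjustment over all genes tested and a threshold of 0.05. Interactions are OS-LM1 minus 786-M1A, with the mean of both hairpins for depletion. log2 CPM used a prior count of 2, and SE was the absolute log2 fold change over the square root of F, with intervals of 1.96 SE. TPM were used as deposited by the authors to compare genes. Exact permutation tests used SciPy 1.17.1. The fits were tested on simulated data.

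The inhibitors and lists were chosen with earlier results of these data known. Named were the 7 inhibitors, PAX8, from each list up to 3 risen and 3 fallen genes with the largest called change in the comparison described, every 9p21 neighbour, and the 3 genes most like each inhibitor with a mean log2 CPM of at least 0, among genes with a mean of at least 3; other named genes (KCNQ1OT1 and PHLDA2 in OS-LM1, CKS1B, KLF4, EZH2 and CD14 outside the comparison that named them) are repeats in further comparisons. Results for 1 listed item, and for the list that depends on it, are not reported here.

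Alternatives were DESeq2 1.42.0 and its size factors, no count filter, stricter thresholds, thinning to the smallest library, other sets of libraries in the fit, exact tests, a replicate block, removal of a GC trend (spline of 5 degrees of freedom, GC content known for 87.5% of genes), both together, and each library left out. Fits with replicates 1 and 2 or 3 and 4 alone in the 786-M1A shPAX8-1 group were added after seeing the data.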

Additional observations from a re-analysis of the deposited data

Results flagged for a closer look

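Of 30 groups of 4 libraries examined, 4 held a library that stood apart from the other 3 by Dixon's criterion, which chance meets in about 1 group in 20. CDKN2C was low in 786-M1A shPAX8-1 replicate 3 (7.89 CPM), CDKN1A was low in 786-M1A shPAX8-2 replicate 3 (382 CPM), and CDKN1C was high in OS-LM1 shPAX8-1 replicate 4 (1.21 CPM) and in 786-M1A shPAX8-2 replicate 2 (1.24 CPM).

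The response to depletion differed between the lines for CDKN1A (a log2 difference of 1.84, with OS-LM1 above 786-M1A), CDKN2D (-0.82) and CDKN1B (-0.81), by the edgeR interaction test. The difference between the hairpins differed between the lines for CDKN1A (1.13). For CDKN2C it was 0.47 (edgeR, adjusted p = 0.046), a call that was lost with the replicate number as a block (adjusted p = 0.071), the GC step (0.51), no filter (0.09) and 10 of 16 fits without 1 depleted library.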

How the results depend on the processing

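Counts of inhibitor genes called in the 4 comparisons with sgNTC18 and for the depletion response between lines stayed within 1.5 times under every alternative tried. Between hairpins in 786-M1A, 1 gene was called in place of 3 with an absolute log2 fold change over 0.58 and with shPAX8-1 replicates 1 and 2 alone. Between lines in sgNTC18, 2 were called in place of 4 with that size limit and with the GC trend removed, with or without the block. For the hairpin difference between lines, 1 was called in place of 2 at an adjusted p under 0.01, with the size limit, with no filter, with the replicate block, with the GC trend removed (with or without the block) and with replicates 1 and 2 alone, and 1 to 3 when single libraries were left out (1 without any of 10 of the 16 depleted libraries, namely all but OS-LM1 shPAX8-1 replicate 3 and shPAX8-2 replicate 3 and 786-M1A shPAX8-1 replicates 1 and 2 and shPAX8-2 replicates 1 and 3). The causes were not tested. Replicate numbers did not pair the libraries: deviations of the 24 same-number pairs had a mean correlation of 0.002 (-0.6 to 0.543). The 72 pairs with other numbers had a mean of -0.001 (-0.657 to 0.6). Each library was also compared with the 4 libraries of another group of its line. In 13 of 48 such comparisons it correlated best with its own number. The block changed the count for the hairpin difference between lines and the CDKN2C call in it (0.46), and no other count.

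Sign changes touched only differences that were not called. Between hairpins in OS-LM1, CDKN2C went from -0.006 to 0.011 (DESeq2 size factors), 0.026 (no filter), 0.162 (GC, with or without block), 0.107 (thinned), 0.025 (all 24 libraries), 0.002 (DESeq2) and 0.047 (exact test), CDKN1A from -0.03 to 0.009 (no filter), 0.13 (GC, with or without block), 0.005 (all 24) and 0.007 (exact test), and CDKN2D from -0.14 to 0.112 (GC), 0.089 (block and GC) and 0.13 (thinned). With GC removed, CDKN2D with shPAX8-2 in 786-M1A was 0.17 (with block 0.17), CDKN1C between lines 0.45 (with block 0.45), and its hairpin difference between lines -0.043. With replicates 1 and 2 alone CDKN1C between hairpins in 786-M1A was -0.33 and CDKN1B in the hairpin difference between lines 0.014. With single libraries left out, ranges that crossed 0 were -0.06 to 0.033 (CDKN1A), -0.073 to 0.116 (CDKN2C) and -0.488 to 0.097 (CDKN2D) between hairpins in OS-LM1, -0.078 to 0.239 (CDKN1C) between hairpins in 786-M1A, -0.112 to 0.028 (CDKN2D with shPAX8-2 in 786-M1A), and, for CDKN1C, -0.89 to 0.26 between lines and -0.631 to 0.519 for the depletion response. Depth limits CDKN1C in sgNTC18, with at most 7 counts per library, and CDKN2D in OS-LM1.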
